A study of Homo sapiens with 12 samples.

Results

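The transcripts of 10 glycolytic enzymes were followed through 4 groups of sorted breast cancer cells. The enzymes were HK2, GPI, PFKP, ALDOA, ALDOC, TPI1, PGK1, ENO1, PKM and LDHA, chosen by symbol through the Ensembl identifiers of a count table of 57783 genes. All 10 were in the table and all 10 passed the filter on low counts, as did 16327 genes in all. The cells were MDA-MB-468, an established line of triple-negative breast cancer, a class without estrogen and progesterone receptors and without amplified HER2. For 10 days they had received EPZ5676 (pinometostat) at 0.5 µM, an inhibitor of DOT1L, the enzyme that methylates lysine 79 of histone H3, or the solvent DMSO. After that they were sorted by ALDH1, aldehyde dehydrogenase, whose activity is often taken to mark cells with stem cell traits. The groups were EPZ5676 ALDH1+, EPZ5676 ALDH1-, DMSO ALDH1+ and DMSO ALDH1-, with 3 libraries each, numbered 1 to 3 and described by the labels as biological replicates. All groups carry the genotype of this 1 line, no group went unsorted, and 1 dose and 1 time were measured.

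Glycolysis splits glucose into a pair of pyruvate molecules. An investment phase, run by hexokinase, glucose-6-phosphate isomerase, phosphofructokinase, aldolase and triose-phosphate isomerase, spends ATP, and a payoff phase, run by glyceraldehyde-3-phosphate dehydrogenase, phosphoglycerate kinase, phosphoglycerate mutase, enolase and pyruvate kinase, returns ATP and NADH. Lactate dehydrogenase then reduces pyruvate to lactate and restores NAD+, and many tumour cells run this route even with oxygen present (the Warburg effect). Several steps have isozymes from separate genes, and many of the genes are known targets of the hypoxia-inducible factors and of MYC.

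Libraries held between 24348594 and 80195050 counts, of which the 10 enzymes took 0.707 to 0.907%. Levels are given as CPM, counts per 1000000 counts of a library after edgeR's TMM scaling, in the order of the library numbers. The 7 epithelial markers EPCAM, CDH1, KRT8, KRT18, KRT19, KRT5 and EGFR summed to 18240.4 to 20264 CPM in EPZ5676 ALDH1+, 17263 to 19962 in EPZ5676 ALDH1-, 16052 to 17613 in DMSO ALDH1+ and 16905 to 18068 in DMSO ALDH1-. Of these 7, 1 was called higher and 4 lower in EPZ5676 ALDH1+ against DMSO ALDH1+ cells (median log2 fold change -0.25), and 0 higher and 1 lower in EPZ5676 ALDH1- against DMSO ALDH1- cells (median -0.11), so their higher sum does not describe most of them. Over all genes tested, 17.8% were called higher and 13.7% lower in ALDH1+ cells, and 13.6% and 9.04% in ALDH1- cells. The part of the epithelial markers in the results was not tested. The 12 markers of other cell types that the table holds (COL1A1, COL1A2, DCN, LUM, PDGFRB, PTPRC, CD3E, CD14, CD68, CSF1R, VWF and CDH5) summed to 34.1 to 35.1 and 30.2 to 37.7 CPM in EPZ5676 ALDH1+ and ALDH1- cells, against 17.6 to 22.8 and 19.5 to 25.2 CPM in DMSO ALDH1+ and ALDH1- cells. COL1A1 and CSF1R made up most of that sum, the fibroblast markers DCN and LUM were at 0 in all 12 libraries, and the part of these genes in the results was not tested. Of the 12, 5 passed the filter, and 4 were called higher and 1 lower in EPZ5676 ALDH1+ against DMSO ALDH1+, and 3 higher and 0 lower in EPZ5676 ALDH1- against DMSO ALDH1- cells. The shares of all genes called are those given for the epithelial markers. Of the receptors that define the class, PGR averaged at most 0.0117 CPM in any group, ESR1 between 7.39 and 10.3 CPM and ERBB2 (HER2) between 37.6 and 65.0 CPM. DOT1L itself averaged 63.3 ± 1.11 CPM in EPZ5676 ALDH1+ against 68.4 ± 7.47 in DMSO ALDH1+, and 66.8 ± 8.07 in EPZ5676 ALDH1- against 79.2 ± 5.30 in DMSO ALDH1- (mean ± SD, n = 3). DOT1L was not called in either population (edgeR), and passed in ALDH1- cells with the replicate number as a block (log2 fold change -0.25, adjusted p = 0.0142). EPZ5676 blocks the protein, so this transcript does not check the treatment labels. In bulk RNA of sorted cells, fewer cells of a type and less RNA per cell cannot be told apart.

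Promoter sequences of the members were read from RefSeq (build GRCh38.p14), as windows of 250 bases before to 50 after a transcript start. Those of 6 genes are shown because they belong to the enzymes on which the results turn: GPI, ALDOA, PGK1 and ENO1 fell in both populations, PKM and LDHA were called in neither. The 250 bases before the start are printed 5′ to 3′ on the strand of the gene, at chr19:34364742-34364991 (+ strand) for GPI, chr16:30064029-30064278 (+) for ALDOA, the first of its 3 windows, chrX:78103998-78104247 (+) for PGK1, chr1:8878687-8878936 (-) for ENO1, chr15:72231191-72231440 (-) for PKM and chr11:18394313-18394562 (+) for LDHA, the first of 2 windows of that gene. Capitals mark ACGTG on either strand (also written CACGT), a form of the core bound by hypoxia-inducible factors that lies inside the MYC-binding E-box CACGTG. Other forms of that core were not searched for.
GPI: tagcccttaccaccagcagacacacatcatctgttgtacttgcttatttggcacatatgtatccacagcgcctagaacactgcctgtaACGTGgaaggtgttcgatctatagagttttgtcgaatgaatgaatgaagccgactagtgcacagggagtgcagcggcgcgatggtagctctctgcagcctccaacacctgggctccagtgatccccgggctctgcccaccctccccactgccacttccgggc
ALDOA: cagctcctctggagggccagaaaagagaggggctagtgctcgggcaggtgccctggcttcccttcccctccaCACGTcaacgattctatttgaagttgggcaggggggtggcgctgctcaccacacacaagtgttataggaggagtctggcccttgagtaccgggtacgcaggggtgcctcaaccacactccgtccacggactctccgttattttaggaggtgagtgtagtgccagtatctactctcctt
PGK1: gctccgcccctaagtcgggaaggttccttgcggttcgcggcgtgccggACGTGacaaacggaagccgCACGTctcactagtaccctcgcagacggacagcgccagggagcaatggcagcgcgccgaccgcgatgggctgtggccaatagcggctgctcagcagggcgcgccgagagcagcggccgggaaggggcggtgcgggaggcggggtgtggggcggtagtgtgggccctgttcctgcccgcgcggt
ENO1: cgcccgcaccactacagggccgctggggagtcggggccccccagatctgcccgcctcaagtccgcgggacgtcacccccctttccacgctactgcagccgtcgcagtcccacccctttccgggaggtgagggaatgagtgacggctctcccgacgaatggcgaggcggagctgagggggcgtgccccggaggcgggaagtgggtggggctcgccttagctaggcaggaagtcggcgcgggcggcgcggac
PKM: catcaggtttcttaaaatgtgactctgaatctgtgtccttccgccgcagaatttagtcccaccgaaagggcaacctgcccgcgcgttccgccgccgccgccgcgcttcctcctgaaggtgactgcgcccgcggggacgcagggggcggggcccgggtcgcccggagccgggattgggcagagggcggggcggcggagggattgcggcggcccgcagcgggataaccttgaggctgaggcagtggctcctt
LDHA: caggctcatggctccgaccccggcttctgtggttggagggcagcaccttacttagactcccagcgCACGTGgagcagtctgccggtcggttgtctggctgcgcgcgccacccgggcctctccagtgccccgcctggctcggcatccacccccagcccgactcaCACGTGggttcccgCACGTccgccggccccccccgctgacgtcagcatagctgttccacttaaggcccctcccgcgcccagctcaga

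The GPI stretch and the ALDOA stretch each held 1 match, the PGK1 stretch 2, with 1 more after the start, and the LDHA stretch 5. Those 5 come from 2 copies of CACGTG, each read on both strands, and 1 further CACGT. The ENO1 and PKM windows held 0 matches. Over all members, 11 of 18 windows, from 8 of the 10 genes, held ACGTG on either strand, while 21.4% of 35116 RefSeq promoter windows of 300 bases did. CACGTG alone was in 7.26% of them. Some windows of 1 gene overlap, so they are not independent. A gene with several windows, such as PFKP with 4, has more chances of a match, and the share over all genes was not counted. A match in these letters is not a binding site, and a window without one may hold another form of the core. Of the 4 genes that fell in both populations, GPI, PGK1 and ALDOA held a match (ALDOA in 3 of 3 windows) and ENO1 held none. Of the 2 called in neither, LDHA held matches in 1 of 2 windows and PKM none. PFKP, which rose in ALDH1+ cells, held a match in 1 of 4 windows, TPI1 in 1 of 2, HK2 in 2 of 2 and ALDOC in 1 of 1. Whether matches go with the calls was not tested.

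Levels were compared between genes per kilobase of exon sequence, with the exon length of the GENCODE annotation. Enolase 1 (ENO1) led in every group, with 316 ± 6.72 CPM per kilobase in EPZ5676 ALDH1+, 308 ± 16.8 in EPZ5676 ALDH1-, 389 ± 7.44 in DMSO ALDH1+ and 376 ± 9.95 in DMSO ALDH1- (mean ± SD, n = 3 each). LDHA came next and then PKM and ALDOA in either order, followed by PGK1 and TPI1. Libraries of ENO1 and LDHA overlapped in EPZ5676 ALDH1+ cells and in no other group. HK2 was ninth, and ALDOC, the aldolase best known from brain, was last with 0.251 ± 0.0881, 0.245 ± 0.0155, 0.329 ± 0.0871 and 0.274 ± 0.0643 CPM per kilobase in the same 4 groups. The lead of ENO1 depends on the lengths, since in CPM alone it led in DMSO ALDH1- cells only. In EPZ5676 ALDH1+ cells PKM averaged 1976 and LDHA 1938 CPM against 1669 CPM for ENO1.

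Per kilobase, GPI and PFKP changed places between the treatments in both populations. PFKP stood above GPI in EPZ5676 cells, at 51.3 ± 5.69 against 46.4 ± 2.32 CPM per kilobase in ALDH1+ and 50.1 ± 3.76 against 44.7 ± 3.03 in ALDH1-, with overlapping libraries in both. In DMSO cells GPI stood above PFKP without overlap, at 54.1 ± 2.01 against 39.7 ± 5.58 in ALDH1+ and 53.7 ± 1.38 against 41.0 ± 4.12 in ALDH1-. PKM and ALDOA overlapped in both EPZ5676 groups, where PKM stood above ALDOA in ALDH1+ cells (230.5 ± 8.19 against 218 ± 8.80) and ALDOA just above PKM in ALDH1- cells (207 ± 15.5 against 206 ± 17.3). In both DMSO groups ALDOA stood above PKM without overlap. The length is that of all exons joined, so a gene with long rarely used exons is placed too low. It was 10680 bases for GPI and 4836 for PFKP. In CPM without the length, GPI stood above PFKP and PKM above ALDOA in every group. GPI averaged 495 against 248 CPM for PFKP in EPZ5676 ALDH1+ cells, and 477 against 242 CPM in EPZ5676 ALDH1- cells. These changes of place therefore rest on the lengths used.

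**Figure D1:**
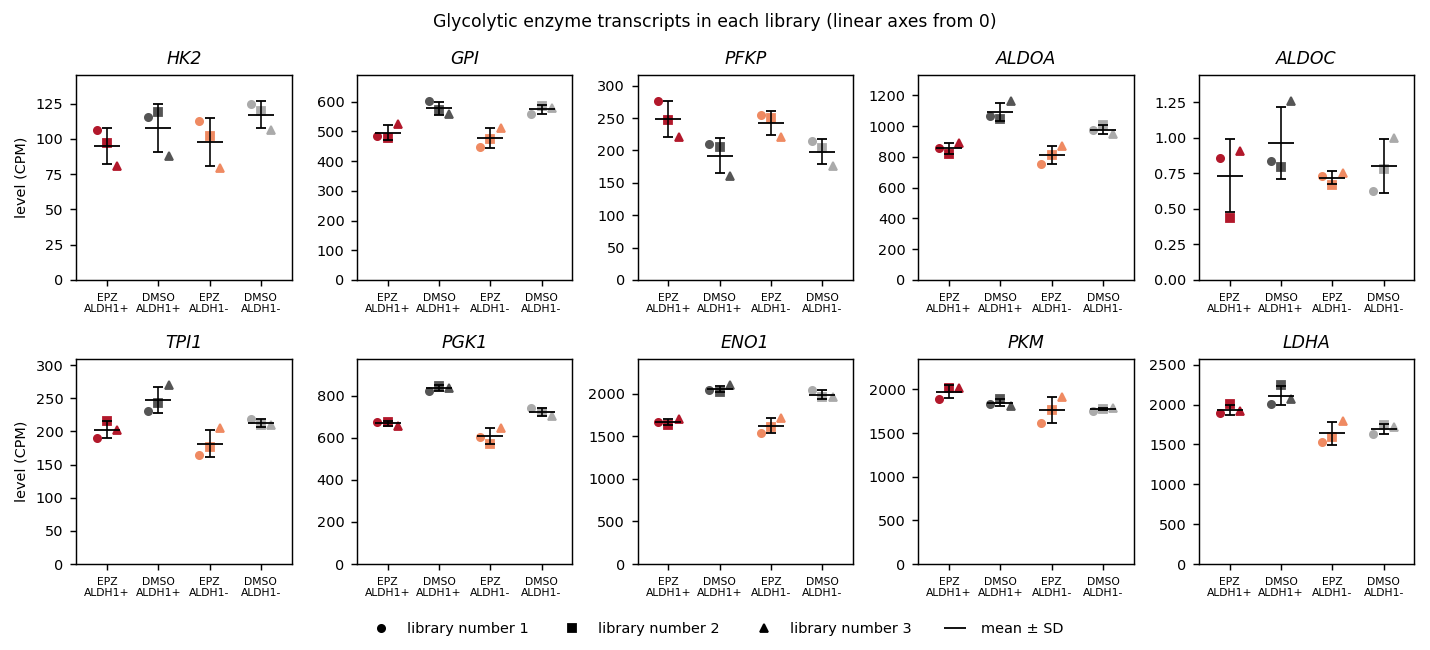
Level in CPM (y axis, linear from 0) of each of the 10 enzymes in all 12 libraries; marker shape gives the library number, bars the mean ± SD of 3 libraries. ENO1, PGK1, ALDOA and GPI sit lower in both EPZ5676 groups than in the DMSO group beside them, PFKP sits higher, and HK2 and PFKP are lowest in library 3 of every group.

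The first question was what DOT1L inhibition did to these transcripts in each population. In ALDH1+ cells, GPI, ALDOA, TPI1, PGK1 and ENO1 fell, by 14.2 to 21.7%, and PFKP rose by 29.4%. In ALDH1- cells, GPI, ALDOA, PGK1 and ENO1 fell, by 16.0 to 18.3%, and none rose in the edgeR quasi-likelihood test. The enzymes at the end of the route, PKM and LDHA, were not called in either population.

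So 1 member was called higher and 5 lower in ALDH1+ cells at an adjusted p under 0.05, where 17.8% and 13.7% of the 16327 genes were called in those directions (31.5% in all). In ALDH1- cells 0 were called higher and 4 lower, where 13.6% and 9.04% of genes were (22.6% in all). DESeq2 also called 0 members higher there, beside 2250 of all genes. The median log2 fold change of the members was -0.26 in ALDH1+ and -0.24 in ALDH1- cells, beside -0.01 and -0.02 over all genes tested. Libraries of the 2 treatments did not overlap for 2 members higher and 6 lower in ALDH1+ cells (22% and 19.3% of all genes, 41.4% in either direction), and for 1 higher and 5 lower in ALDH1- cells (19.7% and 19.4%, 39.1% in either direction). Library numbers pair the libraries across groups, and with that number as a block 1 member was higher and 6 lower in each population, HK2 being added in both and PFKP and TPI1 in ALDH1- cells. Over all genes the block called 22.2% higher and 19.6% lower in ALDH1+ and 17.4% and 14.8% in ALDH1- cells.

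**Figure D2:**
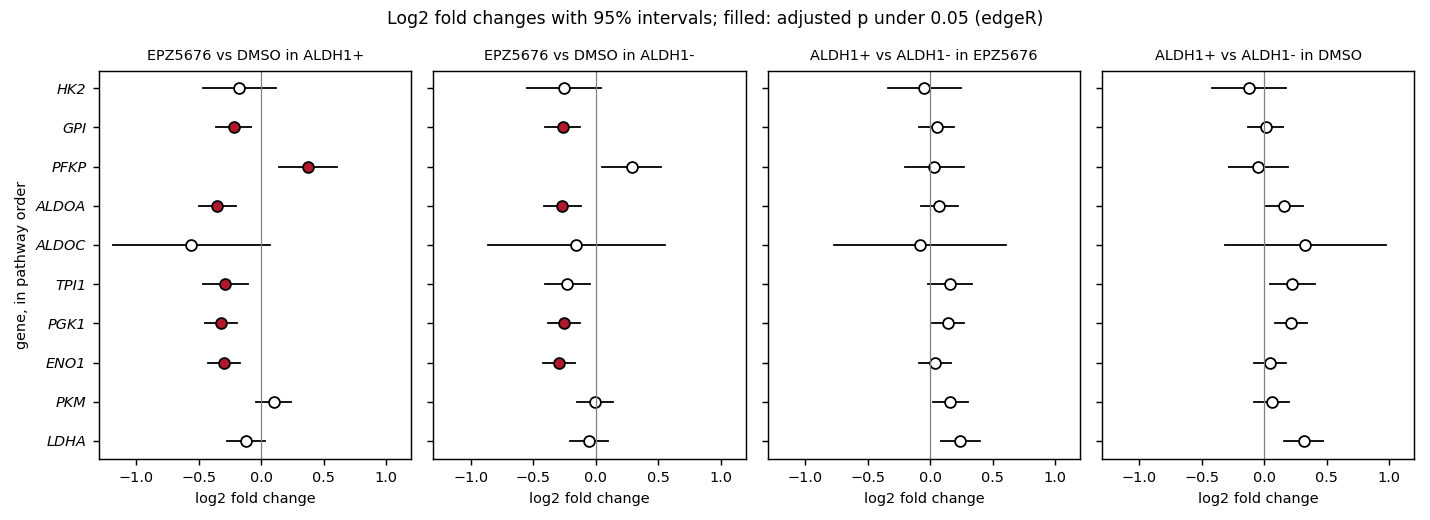
Log2 fold change (x axis) with its 95% interval for each enzyme in 4 contrasts, EPZ5676 over DMSO in the left pair of panels and ALDH1+ over ALDH1- in the right pair; filled points have an adjusted p under 0.05 in edgeR. The treatment panels show 6 filled points in ALDH1+ and 4 in ALDH1- cells, and the population panels show 0.

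The steps that commit glucose came first. HK2, the inducible hexokinase that phosphorylates glucose at the mitochondrial surface, had 106, 97.3 and 81.1 CPM in EPZ5676 ALDH1+ libraries against 116, 119 and 87.9 CPM in DMSO ALDH1+ libraries. It had 113, 102 and 79.4 CPM in EPZ5676 ALDH1- libraries against 125, 120.1 and 106 CPM in DMSO ALDH1- libraries. The groups overlapped in both populations, but each EPZ5676 library lay below the DMSO library of its own number. The log2 fold changes were -0.18 (SE 0.14, adjusted p = 0.353) in ALDH1+ and -0.25 (SE 0.14, adjusted p = 0.214) in ALDH1- cells. With the replicate block the adjusted p was 0.0319 in ALDH1+ and 0.00387 in ALDH1- cells.

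GPI, which turns glucose-6-phosphate into fructose-6-phosphate, had 484, 478 and 524 CPM in EPZ5676 ALDH1+ against 601, 572 and 559 CPM in DMSO ALDH1+ libraries. The ALDH1- libraries had 447, 474 and 511 CPM with EPZ5676 against 557, 584 and 579.9 CPM with DMSO. No library of one treatment reached the other in either population. GPI fell by 0.22 on the log2 scale in ALDH1+ (SE 0.07, adjusted p = 0.0184) and by 0.27 in ALDH1- cells (SE 0.07, adjusted p = 0.00893; edgeR). The ALDH1+ call was lost without DMSO replicate 1 (adjusted p = 0.0597), EPZ5676 replicate 1 (0.0692) or EPZ5676 replicate 2 (0.0686), and the ALDH1- call without EPZ5676 replicate 1 (0.0609).

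PFKP, the platelet-type phosphofructokinase of the rate-setting step, went the other way. It had 276, 248 and 221 CPM in EPZ5676 ALDH1+ libraries against 209.8, 205 and 161 CPM in DMSO ALDH1+ libraries. It had 255, 249.6 and 221 CPM in EPZ5676 ALDH1- libraries against 215, 204 and 176 CPM in DMSO ALDH1- libraries. Every EPZ5676 library was above every DMSO library of its population. PFKP rose by 0.37 in ALDH1+ cells (SE 0.11, adjusted p = 0.018, edgeR). In ALDH1- cells its log2 fold change was 0.29 (SE 0.11, adjusted p = 0.0744), which the block brought to an adjusted p of 0.00074. The ALDH1+ call was lost without DMSO replicate 3 (adjusted p = 0.0881) or EPZ5676 replicate 1 (0.088), while the ALDH1- value passed without EPZ5676 replicate 3 (0.0462).

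The splitting of the sugar followed. ALDOA, the main aldolase, had 856, 820.2 and 889 CPM in EPZ5676 ALDH1+ against 1064, 1049 and 1161 CPM in DMSO ALDH1+ libraries. In ALDH1- cells the libraries had 752, 809.7 and 873 CPM with EPZ5676 against 974, 1005 and 951 CPM with DMSO. The treatments did not overlap in either population. ALDOA fell by 0.35 in ALDH1+ cells (SE 0.07, adjusted p = 0.00128), a call kept whichever library was left out, and by 0.27 in ALDH1- cells (SE 0.07, adjusted p = 0.0113; edgeR). The ALDH1- call was lost without DMSO replicate 2 (adjusted p = 0.0581) or EPZ5676 replicate 1 (0.0725).

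ALDOC was close to the floor, with 17 to 71 counts in a library and 0.439 to 0.910 CPM in EPZ5676 ALDH1+, 0.797 to 1.26 in DMSO ALDH1+, 0.667 to 0.753 in EPZ5676 ALDH1- and 0.623 to 0.998 in DMSO ALDH1-. Its 95% intervals ran from -1.19 to 0.06 in ALDH1+ and from -0.86 to 0.55 in ALDH1- cells on the log2 scale, so changes as large as those of the other members were not detectable at this depth. Of the summed level of the 2 aldolases per kilobase, ALDOA held 99.9 ± 0.0368% in EPZ5676 ALDH1+ and 99.9 ± 0.0239% in DMSO ALDH1+ cells.

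TPI1, which interconverts both triose phosphates, had 191, 216 and 202 CPM in EPZ5676 ALDH1+ against 231, 243 and 269 CPM in DMSO ALDH1+ libraries. The ALDH1- libraries had 164, 176 and 204 CPM with EPZ5676 against 219, 209 and 209 CPM with DMSO. The treatments were apart in both populations, in ALDH1- cells by a narrow gap between EPZ5676 library 3 and DMSO library 2. TPI1 fell by 0.29 in ALDH1+ cells (SE 0.08, adjusted p = 0.016). In ALDH1- cells the log2 fold change was -0.23 (SE 0.08, adjusted p = 0.0671, and 0.0183 with the block). The ALDH1+ call was lost without DMSO replicate 3 (adjusted p = 0.0761) or EPZ5676 replicate 1 (0.073), and the ALDH1- value passed without EPZ5676 replicate 3 (0.0118).

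In the payoff phase, PGK1 and ENO1 fell in each population and kept their calls in every fit that left out 1 library. PKM, the last enzyme of that phase, was not called. PGK1, the kinase of the first ATP-yielding step, had 677, 674 and 657 CPM in EPZ5676 ALDH1+ against 821, 848 and 839 CPM in DMSO ALDH1+ libraries. The ALDH1- libraries had 605, 570.2 and 647 CPM with EPZ5676 against 740.4, 723 and 705 CPM with DMSO. The highest EPZ5676 library stayed below the lowest DMSO library in each population. PGK1 fell by 0.32 in ALDH1+ (SE 0.06, adjusted p = 0.000892) and by 0.25 in ALDH1- cells (SE 0.06, adjusted p = 0.00708; edgeR).

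ENO1, which makes phosphoenolpyruvate, had 1671, 1633 and 1704 CPM in EPZ5676 ALDH1+ against 2044, 2018 and 2095 CPM in DMSO ALDH1+ libraries. In ALDH1- cells the libraries had 1541, 1609 and 1717 CPM with EPZ5676 against 2047, 1956 and 1955 CPM with DMSO. Again the treatments did not overlap. ENO1 fell by 0.30 in ALDH1+ (SE 0.06, adjusted p = 0.00155) and by 0.29 in ALDH1- cells (SE 0.06, adjusted p = 0.00246; edgeR). Number by number, the log2 differences were -0.29, -0.31 and -0.30 in ALDH1+ and -0.41, -0.28 and -0.19 in ALDH1- cells, so the ALDH1+ pairs were nearly alike and the ALDH1- pairs were not.

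The last steps, PKM and LDHA, were not called, and whether they differ from the enzymes above was not tested. PKM, pyruvate kinase, had 1895, 2018 and 2014 CPM in EPZ5676 ALDH1+ against 1836, 1892 and 1812 CPM in DMSO ALDH1+ libraries. The ALDH1- libraries had 1619, 1765 and 1915 CPM with EPZ5676 against 1758, 1777 and 1789 CPM with DMSO. The ALDH1+ groups were just apart, with EPZ5676 above, and the EPZ5676 ALDH1- libraries lay on both sides of the DMSO ones. The log2 fold changes were 0.10 (95% interval -0.04 to 0.24, adjusted p = 0.289) and -0.01 (-0.15 to 0.14, adjusted p = 0.961). Both intervals leave out a fall of the size seen for ENO1. Counts per gene do not separate the splice forms PKM1 and PKM2.

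LDHA, which reduces pyruvate to lactate, had 1892, 2009 and 1914 CPM in EPZ5676 ALDH1+ against 2012, 2242 and 2077 CPM in DMSO ALDH1+ libraries. In ALDH1- cells the libraries had 1528, 1591 and 1796 CPM with EPZ5676 against 1628, 1750.3 and 1718 CPM with DMSO. EPZ5676 libraries were lower without overlap in ALDH1+ cells by a gap of few CPM, and overlapped DMSO in ALDH1- cells. The log2 fold changes were -0.12 (95% interval -0.28 to 0.03, adjusted p = 0.212) and -0.05 (-0.20 to 0.10, adjusted p = 0.66). The ALDH1+ interval takes in a fall of the size called for GPI in those cells.

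Isozymes of a step were then set side by side, as shares of the step's summed CPM per kilobase. PFKP took 73.0, 71.6 and 68.5% of the phosphofructokinase sum in EPZ5676 ALDH1+ libraries against 59.0, 61.0 and 55.0% in DMSO ALDH1+ libraries. In ALDH1- cells it took 70.9, 70.5 and 69.1% with EPZ5676 against 59.8, 59.9 and 57.5% with DMSO. The shares did not overlap in either population. The liver-type isozyme PFKL moved the other way, to 25.5 ± 1.75% in EPZ5676 ALDH1+ against 38.6 ± 3.14% in DMSO ALDH1+, and to 26.5 ± 0.924% in EPZ5676 ALDH1- against 37.9 ± 1.32% in DMSO ALDH1- cells (mean ± SD, n = 3 each).

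PFKL itself fell by 0.51 in ALDH1+ (SE 0.06, adjusted p = 3.2e-05) and by 0.47 in ALDH1- cells (SE 0.06, adjusted p = 9.7e-05; edgeR), calls that every fit without 1 library kept. The muscle-type isozyme PFKM held 3.49 ± 0.548% in EPZ5676 ALDH1+ against 3.03 ± 0.174% in DMSO ALDH1+, and 3.31 ± 0.0665% in EPZ5676 ALDH1- against 3.01 ± 0.0395% in DMSO ALDH1- cells. Its shares overlapped in ALDH1+ and not in ALDH1- cells. PFKM itself rose by 0.29 in ALDH1+ cells (adjusted p = 0.0377, edgeR). That call was lost without DMSO replicate 1 (0.0527), DMSO replicate 3 (0.178), EPZ5676 replicate 2 (0.0862) or EPZ5676 replicate 3 (0.116). It was not called in ALDH1- cells (adjusted p = 0.245, edgeR). For enolase, the neuronal isozyme ENO2 held 1.55 ± 0.289% in EPZ5676 ALDH1+ against 0.776 ± 0.150% in DMSO ALDH1+, and 1.44 ± 0.263% in EPZ5676 ALDH1- against 0.814 ± 0.0845% in DMSO ALDH1- cells. ENO1 made up nearly all of the rest in every group. Among hexokinases, HKDC1 held 2.30 ± 0.312% in EPZ5676 ALDH1+ against 1.44 ± 0.212% in DMSO ALDH1+, and 2.21 ± 0.382% in EPZ5676 ALDH1- against 1.34 ± 0.141% in DMSO ALDH1- cells, higher without overlap in both populations. HKDC1 itself rose by 0.54 in ALDH1+ and 0.52 in ALDH1- cells (adjusted p = 0.0105 and 0.0226, edgeR). The ALDH1- call was lost without DMSO replicate 3 (0.103), EPZ5676 replicate 2 (0.0556) or EPZ5676 replicate 3 (0.0812). HK2 took 26.2 ± 3.28% of the hexokinase sum in EPZ5676 ALDH1+ against 26.8 ± 2.47% in DMSO ALDH1+ cells, and LDHA 87.2 ± 1.36% of the LDHA and LDHB sum against 88.0 ± 0.370%, differences within the larger SD of each pair.

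**Figure D3:**
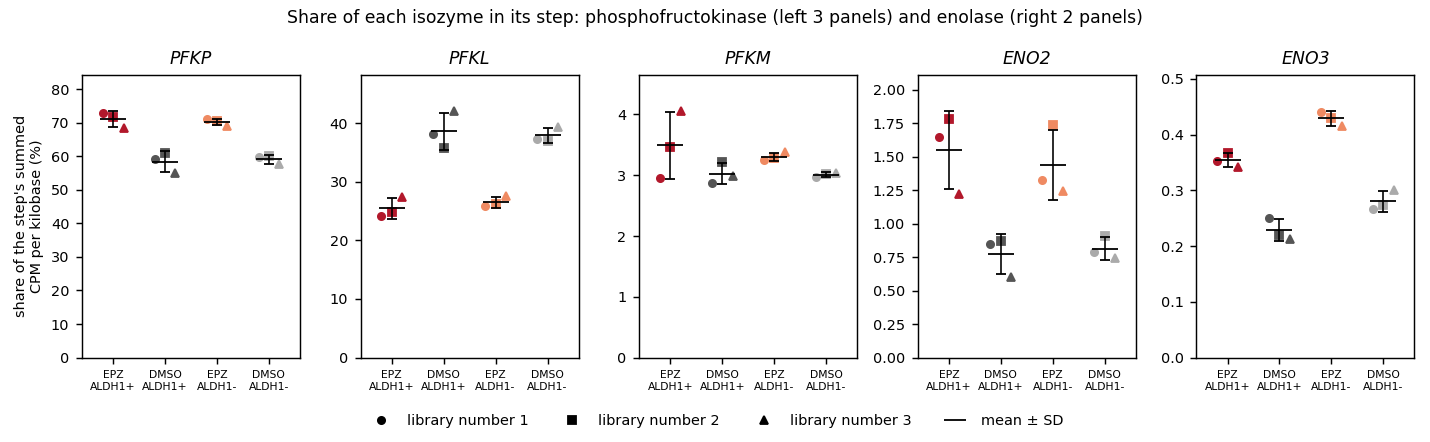
Share of 5 isozymes in the summed CPM per kilobase of their step (y axes in percent, linear from 0, each panel on its own scale) in all 12 libraries, with the mean ± SD of 3; marker shape gives the library number. PFKP shares lie at 68.5 to 73.0% in EPZ5676 and at 55.0 to 61.0% in DMSO libraries, PFKL shares run the other way, and ENO2 stays under 2% throughout.

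Other enzymes of the pathway did not move as a block. Of 21 listed genes, 10 could be tested, and 5 were called higher and 3 lower in ALDH1+, 4 higher and 3 lower in ALDH1- cells. Without DMSO ALDH1+ replicate 3 or EPZ5676 ALDH1+ replicate 2 the ALDH1+ rises numbered 3. Leaving out 1 library of the ALDH1- groups gave 1 to 4 rises and 1 to 2 falls, with 1 of each without DMSO ALDH1- replicate 3. Of all genes, 17.8% were called higher and 13.7% lower in ALDH1+, and 13.6% and 9.04% in ALDH1- cells. The median log2 fold change of the listed genes was 0.14 in ALDH1+ and 0.12 in ALDH1- cells, against -0.01 and -0.02 over all genes. GAPDH, the dehydrogenase of the payoff phase, averaged 2835 ± 196 CPM in EPZ5676 ALDH1+ against 3490.4 ± 139 in DMSO ALDH1+ cells and fell by 0.30 (SE 0.08, adjusted p = 0.00841). PGAM1, the mutase before enolase, fell by 0.24 there (SE 0.06, adjusted p = 0.00589). BPGM, which makes 2,3-bisphosphoglycerate in a side branch, rose by 0.65 in ALDH1+ and 0.77 in ALDH1- cells (SE 0.10 and 0.10, adjusted p = 1.7e-04 and 7.6e-05), and ENO2 rose by 0.73 in ALDH1+ cells (SE 0.16, adjusted p = 0.0029). These calls held whichever library was left out. In ALDH1- cells GAPDH fell by 0.24 (adjusted p = 0.0376), a call lost without any 1 of 5 libraries (adjusted p = 0.0819 to 0.172), with total counts (0.061) or with the compared groups alone (0.0575). ENO2 rose by 0.54 there (adjusted p = 0.0268), a call lost without DMSO replicate 1 (0.0629), DMSO replicate 3 (0.104) or EPZ5676 replicate 2 (0.149). PGAM1 was not called in ALDH1- cells (log2 fold change -0.15, adjusted p = 0.079, and 0.0475 with the block), edgeR being used throughout.

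Transport of glucose and lactate was examined next. Of 12 tested genes of glucose and lactate transport, which include the chaperone BSG, 4 were called higher and 1 lower in ALDH1+ cells. In ALDH1- cells 4 were called higher and 2 lower. Of all genes, 17.8% were higher and 13.7% lower in ALDH1+, and 13.6% and 9.04% in ALDH1- cells. Their median log2 fold changes were 0.19 and 0.13, beside -0.01 and -0.02 over all genes. Without EPZ5676 ALDH1+ replicate 3 the ALDH1+ falls numbered 2, and without EPZ5676 ALDH1- replicate 1 the ALDH1- falls numbered 1. The rises numbered 3 to 4 in each population when 1 library was left out, with 3 in ALDH1+ cells without DMSO replicate 3. The lactate exporter SLC16A3 (MCT4) had 16.0, 17.4 and 12.6 CPM in EPZ5676 ALDH1+ against 5.31, 6.69 and 4.62 in DMSO ALDH1+ libraries, a rise of 1.50 (SE 0.16, adjusted p = 5.4e-06), and rose by 1.10 in ALDH1- cells (SE 0.16, adjusted p = 1.4e-04). SLC16A1 (MCT1) rose by 0.61 and 0.60, while BSG, the chaperone that carries both to the membrane, fell by 0.48 and 0.46 in ALDH1+ and ALDH1- cells (largest adjusted p = 3.0e-04, edgeR). These held in every fit that left out 1 library.

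The main glucose carrier of these libraries, SLC2A1 (GLUT1), averaged 349.5 ± 34.3 CPM in EPZ5676 ALDH1+ against 330.1 ± 28.9 in DMSO ALDH1+ cells and was not called (log2 fold change 0.08, SE 0.09, adjusted p = 0.532). SLC2A3 (GLUT3) averaged 4.23 ± 0.863 CPM in EPZ5676 ALDH1+ against 0.810 ± 0.185 in DMSO ALDH1+ cells, a rise of 2.47 from a low level (SE 0.28, adjusted p = 1.2e-05, edgeR). SLC2A3 has a near-identical copy in SLC2A14, so its counts carry that uncertainty. SLC2A1, SLC2A3 and PFKM were singled out after their values had been seen.

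**Figure D4:**
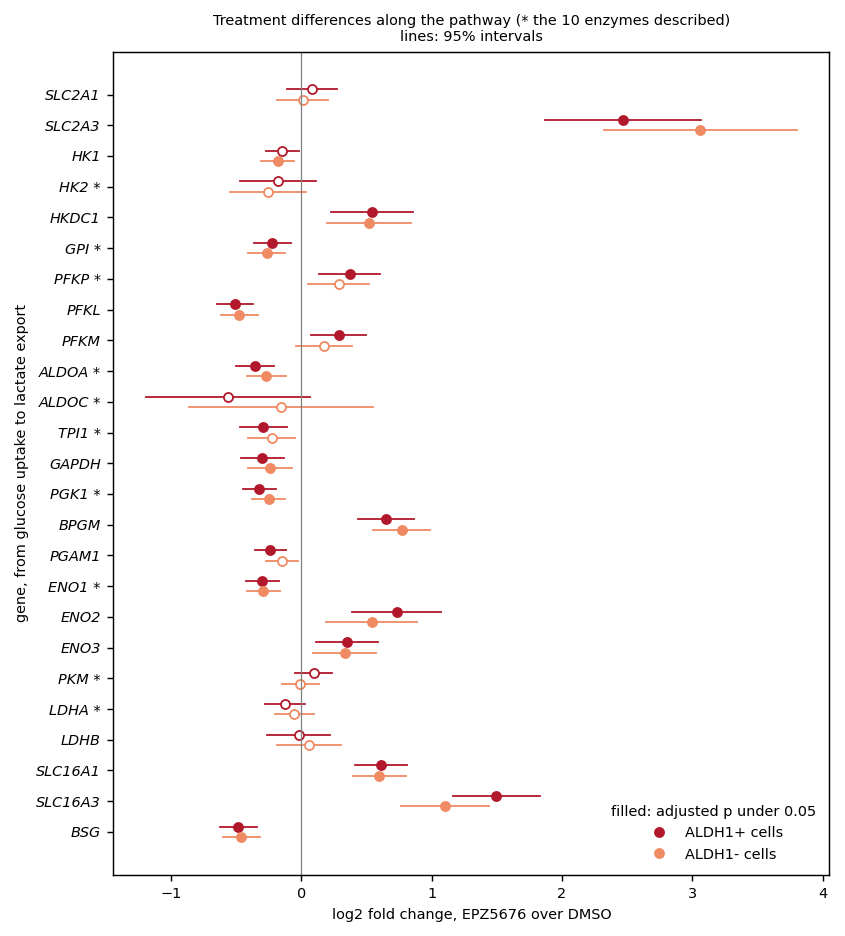
Log2 fold change of EPZ5676 over DMSO (x axis) with 95% intervals in ALDH1+ and ALDH1- cells for 25 genes ordered from glucose uptake to lactate export; filled points have an adjusted p under 0.05 in edgeR and asterisks mark the 10 enzymes described. The enzymes from GPI to ENO1 lie mostly between -0.6 and 0, ALDOC among them. PFKP, BPGM and the minor isozymes HKDC1, PFKM, ENO2 and ENO3 lie to the right, and SLC2A3 and SLC16A3 lie farthest right.

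Genes at the exits of the pathway were counted in the same way. Of 13 genes of pyruvate entry into mitochondria, 0 were called higher and 7 lower in ALDH1+ cells, and 1 higher and 2 lower in ALDH1- cells, beside 17.8% and 13.7% of all genes in ALDH1+ and 13.6% and 9.04% in ALDH1- cells. With the replicate block these counts were 1 and 8 in ALDH1+ (22.2% and 19.6% of all genes) and 1 and 6 in ALDH1- cells (17.4% and 14.8%). Their median log2 fold changes were -0.19 and -0.17, beside -0.01 and -0.02 over all genes. Leaving out 1 library gave 5 to 7 lower in ALDH1+ cells. In ALDH1- cells it gave 1 lower without DMSO replicate 2, DMSO replicate 3 or EPZ5676 replicate 2, and 4 lower without EPZ5676 replicate 3. The 1 rise there, PDP1, was lost without DMSO replicate 2, EPZ5676 replicate 1 or EPZ5676 replicate 2 (adjusted p = 0.0528 to 0.0597). PDK3, a kinase that switches pyruvate dehydrogenase off, fell by 0.81 and 0.82 in ALDH1+ and ALDH1- cells (adjusted p = 0.000641 and 0.00106). In ALDH1+ cells MPC1, a subunit of the pyruvate carrier, fell by 0.53 and PDHB, a subunit of the dehydrogenase, by 0.44 (adjusted p = 0.000831 and 0.000923, edgeR).

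Of 9 tested genes of fructose 2,6-bisphosphate and gluconeogenesis, 1 was called higher and 1 lower in ALDH1+ and 0 higher and 1 lower in ALDH1- cells, with medians of 0.08 and -0.11. The shares of all genes called are those given for pyruvate entry. With the block 3 were higher and 2 lower in ALDH1+, and 1 higher and 2 lower in ALDH1- cells, and without EPZ5676 ALDH1+ replicate 3 the ALDH1+ counts were also 3 and 2. The lower one was PC, the carboxylase that turns pyruvate into oxaloacetate, with 19.7, 17.8 and 21.2 CPM in EPZ5676 ALDH1+ against 51.3, 41.1 and 47.6 in DMSO ALDH1+ libraries. It fell by 1.26 in ALDH1+ and 1.09 in ALDH1- cells (SE 0.09 and 0.10, adjusted p = 3.0e-07 and 1.9e-06, edgeR). The higher one, PCK2, which makes phosphoenolpyruvate in mitochondria, lost its call without any 1 of 5 libraries (adjusted p = 0.0748 to 0.179).

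Hypoxia factors and their targets outside glycolysis numbered 16. Of these, 1 was called higher and 6 lower in ALDH1+ cells and 1 higher and 3 lower in ALDH1- cells, beside 17.8% and 13.7% of all genes in ALDH1+ and 13.6% and 9.04% in ALDH1- cells. With the block 2 were higher and 7 lower in ALDH1+ (22.2% and 19.6% of all genes), and 1 higher and 7 lower in ALDH1- cells (17.4% and 14.8%). Their median log2 fold changes were -0.12 and -0.19. Without DMSO ALDH1+ replicate 2 the ALDH1+ falls numbered 3, and without EPZ5676 ALDH1+ replicate 1 or 3 the rises numbered 2. The 3 that held in every such fit in both populations were the carbonic anhydrase CA9, down by 2.46 and 2.24, EPAS1 (HIF-2α), down by 0.98 and 0.92, and the angiogenic factor VEGFA, down by 0.62 and 0.51 in ALDH1+ and ALDH1- cells (largest adjusted p = 0.00607, edgeR). HIF1A, named after its value had been seen, had log2 fold changes of -0.23 and -0.19 and was not called (adjusted p = 0.0782 and 0.163, and 0.00757 and 0.0209 with the block). ADM, a hypoxia target that rose, had log2 fold changes of 1.12 and 1.12, and its calls were lost without DMSO replicate 3 of either population (adjusted p = 0.053 in ALDH1+ and 0.0667 in ALDH1- cells) or without EPZ5676 ALDH1- replicate 2 (0.052).

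The second question was whether the sorted populations differed. The labels were first set beside 2 aldehyde dehydrogenase genes whose products the sort can read. ALDH1A3 averaged 1953 ± 123 CPM in ALDH1+ against 1449 ± 54.4 in ALDH1- cells under EPZ5676, and 1642 ± 202 against 1371 ± 9.34 under DMSO, higher without overlap in both but not called (log2 fold changes 0.43 and 0.26, adjusted p = 0.157 and 0.171, and 0.0158 and 0.0417 with the block, edgeR). DESeq2 called ALDH1A3 under EPZ5676 (adjusted p = 0.00223) and not under DMSO. ALDH1A1 averaged 11.8 ± 2.09 CPM in ALDH1+ against 11.95 ± 1.76 in ALDH1- cells under EPZ5676, and 33.1 ± 5.21 against 25.3 ± 2.94 under DMSO, with overlap in both (n = 3 each). It was not called (log2 fold changes -0.03 and 0.40, adjusted p = 0.984 and 0.201), and passed under DMSO with the block (0.0254).

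Without the replicate block, edgeR called none of the 10 enzymes between ALDH1+ and ALDH1- cells. This held in EPZ5676, where 0.0184% of all genes were called, and in DMSO, where 0% were. At an unadjusted p under 0.05, edgeR gave 3 members in EPZ5676 and 4 in DMSO cells, beside 1032 and 2904 of all genes. After adjustment DESeq2 called 0 members in EPZ5676 and 2 in DMSO cells. Over all 16327 genes DESeq2 called 13 higher and 12 lower in EPZ5676, and 137 higher and 146 lower in DMSO cells. With the replicate block edgeR called 0 members in EPZ5676 and 2 higher in DMSO cells, LDHA and PGK1. Of all genes the block called 31 higher and 44 lower in EPZ5676, and 564 higher and 820 lower in DMSO cells. The libraries of both populations did not overlap for 2 members in EPZ5676 (PGK1 and LDHA) and 5 in DMSO cells (ALDOA, TPI1, PGK1, PKM and LDHA), all higher in ALDH1+. Over all genes 4.95% and 10.6% were higher without overlap, and 9.57% and 23.1% lay apart in either direction.

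Among the 9 members other than ALDOC, LDHA had the largest population difference under both treatments. Its ALDH1+ level was 1938 ± 62.0 CPM against 1639 ± 140.4 CPM in ALDH1- cells under EPZ5676, and 2110.2 ± 118 against 1699 ± 63.4 CPM under DMSO (mean ± SD, n = 3 each). The log2 fold changes were 0.24 (SE 0.07, adjusted p = 0.544) and 0.31 (SE 0.07, adjusted p = 0.161), with all 3 numbered pairs higher in ALDH1+ under each treatment. With the block the DMSO difference passed the threshold (adjusted p = 0.0139) and the EPZ5676 one did not (0.107).

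PGK1 behaved likewise at a smaller size, with log2 fold changes of 0.14 in EPZ5676 and 0.21 in DMSO cells (adjusted p = 0.784 and 0.167, and 0.328 and 0.0369 with the block). For TPI1 the log2 fold changes were 0.16 and 0.22, for ALDOA 0.07 and 0.16, and for PKM 0.16 and 0.06. HK2, GPI, PFKP and ENO1 lay between -0.12 and 0.05 in both treatments. As a sum, the 10 enzymes took 0.814 ± 0.0149% of counts in EPZ5676 ALDH1+ against 0.755 ± 0.0508% in EPZ5676 ALDH1- cells, and 0.892 ± 0.0132% in DMSO ALDH1+ against 0.826 ± 0.00898% in DMSO ALDH1- cells. The population contrasts use the libraries of the treatment contrasts, so the 4 contrasts are not independent.

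The treatment effect was also compared between the populations. No member was called for that difference in edgeR (0% of all genes were, and 597 genes had an unadjusted p under 0.05), so an effect called in ALDH1+ and not in ALDH1- cells, as for PFKP and TPI1, is not shown to differ between them. The difference of the log2 fold changes, ALDH1+ minus ALDH1-, had 95% intervals of -0.25 to 0.41 for PFKP, -0.32 to 0.19 for TPI1, -0.19 to 0.17 for ENO1 and -0.10 to 0.30 for PKM.

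The members differed in how they varied among replicates. HK2 and PFKP were lowest in the library numbered 3 in all 4 groups, by 0.35 and 0.26 on the log2 scale on average below the other 2 libraries, and ALDOC was highest in it in all 4. The other 7 showed no such run in all groups. Between numbered pairs the treatment difference of the same sign was seen in all 3 pairs for 9 of 10 members in ALDH1+ and 7 of 10 in ALDH1- cells, where 60.4% and 58.8% of all genes tested showed it.

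The mean standardized level of the 10 enzymes was compared with the log2 CPM of 8518 other genes over the 12 libraries. The highest Pearson correlations were those of CADM4, TFDP1, PGAM1, NQO1 and RUSC1, at 0.97, 0.97, 0.96, 0.95 and 0.95. That mean does not describe every member. ALDOA and ENO1 correlated at 0.95 with each other, but PFKP at -0.82 with ALDOA and -0.81 with ENO1, and HK2 at -0.54 with PKM. The libraries share the treatment groups, so these values describe the 12 libraries only. Of the 5, PGAM1 is itself a glycolytic enzyme. Processed pseudogenes of 7 of the members were in the table as 24 entries, 19 of them with at least 1 count, and they took at most 0.616% of the reads of a parent and its pseudogenes, for TPI1. Reads that the counting may have dropped or shared between these copies are not seen in that share.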

How the data were processed

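RNA of the 12 libraries was sequenced in bulk from kits that mark the strand, per the labels' protocols. Per the submitters' processing notes, Trim Galore, STAR and the build hg19 were used. No label or header names the counting program, its strand setting, the annotation or any version. What the authors deposited is a single table of raw read counts per gene, whole numbers without normalization, and all values were computed from it. Column names give treatment, population and number, which tie each to its label. Identifiers were matched without their version to GENCODE symbols (51959 of 57783), and 96.61% of the genes tested had one. Genes that overlap or share sequence carry uncertain counts. No hg19 annotation was used, so coordinates are those of the RefSeq promoters only.

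The quasi-likelihood test of edgeR 4.0.16 (R 4.3.3) was run after filterByExpr by group, on the 12 libraries together, with group means as terms and scaling by trimmed mean of M values (TMM; factors 0.975 to 1.021). P-values were adjusted by Benjamini-Hochberg over all 16327 genes and called under 0.05. Each standard error is the fold change over the root of its F statistic, and the common biological coefficient of variation was 9.58%. CPM (counts per 1000000) are means ± SD of 3 libraries, also divided by the joined exon length in kilobases. A count of 3 in a library equals 0.0374 to 0.123 CPM. P-values measure the spread between replicates that the labels call biological. No pair of replicates of a group was alike within counting error (chi-square per degree of freedom 3.74 to 30.4 over 12 pairs). The fit was tested on simulated data.

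The library numbers recur in all groups. Over 12354 genes, deviations from the group means correlated at 0.17 to 0.65 in all 18 pairs of libraries with the same number and at -0.66 to 0.22 in the 36 other pairs across groups, so the numbers pair the libraries. The number was entered as a block in an alternative fit. Others were median-ratio (RLE) scaling, total counts, no filter, at least 1 CPM in 3 libraries, DESeq2 1.42.0, fits restricted to the groups compared, leaving out each library and, chosen after seeing the data, the libraries numbered 1 and 2 only.

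The members, the gene lists and the tests were chosen with earlier results of these data known. The text names the 10 members, DOT1L, ALDH1A1, ALDH1A3, and up to 6 called genes by smallest p per list and contrast (average log2 CPM 1 or more). It also names the 5 genes most correlated with the mean standardized level of the members (average log2 CPM 4 or more). Genes of the marker lists are named as lists. PFKM, ENO3, SLC2A1, SLC2A3, LDHB and HIF1A were added after their values had been seen.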

Additional observations from a re-analysis of the deposited data

How the results depend on the processing

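Of the single-gene values recomputed under each alternative, 1461 kept direction and side of the threshold, 103 lost their call, 34 gained one and 43 changed sign; the cause was not tested. Counts are given as higher and lower, and other values are log2 fold changes. Median-ratio (RLE) scaling reversed no direction and ended 1 call, that of PDHX in ALDH1- cells (adjusted p = 0.0503, edgeR). With total counts, uncalled values changed sign for LDHB in ALDH1+ (0.0051) and PKM in ALDH1- cells (0.014) between treatments and for GPI between populations in DMSO (-0.014). PKM in ALDH1- cells was also above 0 with at least 1 CPM in 3 libraries (0.0031) and in the fit of the compared groups alone (0.018). Total counts ended the calls of MXI1 in ALDH1+ (adjusted p = 0.0611) and of GAPDH (0.061), HK1 (0.0853) and PDHX (0.0692) in ALDH1- cells (edgeR). The hypoxia falls in ALDH1+ cells then numbered 4, and the falls of other glycolytic enzymes in ALDH1- cells 1. In ALDH1- cells PDHX also lost its call with at least 1 CPM in 3 libraries (0.054, edgeR), and ENO3 in DESeq2 (0.071).

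Without the filter, PFKP was called higher (1 member) and HK2 and TPI1 lower (adjusted p = 0.0269 and 0.0417, 6 members in all) in ALDH1- cells, HIF1A was called lower in ALDH1+ cells, PFKM, ENO3 and MXI1 in ALDH1+ and HK1, PDHX and ENO3 in ALDH1- cells lost their calls, LDHA was called between populations in each treatment (1 member higher in each), as were ALDH1A3 in both and ALDH1A1 in DMSO cells, and the genes called between populations numbered 139 and 96 in EPZ5676 and 538 and 410 in DMSO cells, with 25 and 12 for the difference of the treatment effects. DESeq2 called 13 and 12 genes between populations in EPZ5676 and 137 and 146 in DMSO cells, with 2 members higher there (PGK1 and LDHA). Fitting the compared groups alone gave 2 genes lower between populations in EPZ5676 cells and 1 member higher in ALDH1- cells (PFKP, adjusted p = 0.017), and GPI lost its ALDH1+ call (adjusted p = 0.0604, edgeR), as did DLD, P4HA1, MXI1, PFKM, ENO3 and ALDH1A3 there and GAPDH, HK1, PDHX and ENO3 in ALDH1- cells.

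With the replicate block, 2423 genes were lower and 1 member higher in ALDH1- cells between treatments. Between populations, the block called 31 and 44 genes in EPZ5676 and 564 and 820 in DMSO cells, with 2 members higher. Beyond the calls given beside the results, the block changed no other call among the genes it was tabulated for: the members in all contrasts, the named list genes in the contrasts where they were called, and the genes added to them.

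The libraries numbered 1 and 2 alone, an alternative chosen after seeing the data, called 1 member higher (PFKP) and TPI1 as a further one lower (log2 fold change -0.32, adjusted p = 0.0101) in ALDH1- cells, and 20 and 41 genes between populations in EPZ5676 cells, ALDH1A3 among them. HIF1A gained a call in ALDH1+ cells, while PFKM, P4HA1 and ENO3 in ALDH1+ and HKDC1, HK1, SLC2A10 and ENO3 in ALDH1- cells lost theirs. LDHB in ALDH1- cells became -0.055, and the difference of the treatment effects became -0.029 for HK2, 0.098 for TPI1, 0.00072 for PGK1 and 0.036 for ENO1.

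Leaving out 1 library gave 0 to 1 members higher and 3 to 5 lower in ALDH1+ cells between treatments. All genes called in those fits numbered 2290 to 3042 higher and 1503 to 2408 lower. In ALDH1- cells 0 to 1 members were higher and 2 to 5 lower, beside 1680 to 2288 genes higher and 891 to 1364 lower. Between populations, 0 to 9 genes were higher and 0 to 15 lower in EPZ5676 cells, and 0 to 1 lower in DMSO cells. Uncalled treatment values crossed 0 in ALDH1+ cells for SLC2A1 (-0.0015 to 0.14) and LDHB (-0.12 to 0.090). In ALDH1- cells they did so for ALDOC (-0.30 to 0.029), PKM (-0.063 to 0.059), LDHA (-0.12 to 0.0026), SLC2A1 (-0.036 to 0.10) and LDHB (-0.057 to 0.17). Population values crossed 0 in EPZ5676 cells for HK2 (-0.18 to 0.059), PFKP (-0.047 to 0.11), ALDOC (-0.29 to 0.30) and ALDH1A1 (-0.13 to 0.12), and in DMSO cells for HK2 (-0.20 to 0.011), GPI (-0.021 to 0.038) and PFKP (-0.12 to 0.071). The difference of the effects did so for HK2 (-0.062 to 0.18), GPI (-0.011 to 0.088), PFKP (-0.036 to 0.16), TPI1 (-0.14 to 0.022) and ENO1 (-0.051 to 0.029).

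ALDOC, with 17 to 71 counts in a library, is the member that depth limits most.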
